A study of Mus musculus with 6 samples.

Results

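The 10 genes described here are the NF-κB subunits Rela, Nfkb1, Nfkb2 and Relb, the inhibitor and feedback genes Nfkbia, Nfkbiz, Tnfaip3 and Birc3, the target gene Icam1, and the kinase gene Map3k8. They were chosen by gene symbol from the 28880 genes of a mouse liver RNA-seq table, and all 10 were present. Livers came from 3 mice given ethanol and 3 controls, all male wild type C57BL/6J animals aged 6 to 8 weeks. After 12 h without food, the first group was gavaged once with 6 g/kg of ethanol (as a 50% v/v solution), and livers were collected 24 h later. Control mice received no ethanol, and since the labels do not say whether these mice were fasted or gavaged, ethanol, fasting and gavage cannot be told apart. All libraries carry the same batch label. The comparison asks how the liver's NF-κB machinery and its feedback genes stood after this single dose.

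NF-κB is a family of dimeric transcription factors that cells keep ready in the cytoplasm, bound to inhibitors of the IκB family. Signals from cytokine and Toll-like receptors reach the IκB kinase (IKK) complex, which marks the inhibitor for destruction and frees the dimer to enter the nucleus. Among the genes it switches on are its own inhibitors, so the response limits itself, and in the liver it is best known for acute-phase and inflammatory genes and for protecting hepatocytes from cell death. A messenger RNA level shows neither the amount of the protein nor where in the cell it lies.

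Feedback of this kind runs through kappaB sites in promoters, with Nfkbia as the textbook case, so promoter sequences are shown first. Start sites of 6 of the 10 genes (9 start sites) were in a RefSeq promoter table (GRCm38.p6), while Nfkb1, Relb, Nfkbiz and Map3k8 had no entry. The 250 bases before each start site were searched on both strands for the 10-base kappaB consensus, whose matches can overlap each other. Nfkbia, Tnfaip3 and Nfkb2 held at least 1 match, and Rela, Birc3 and Icam1 held none. Of all 27025 genes in that table, 4.46% held a match at 1 or more start sites, and of its 32851 start sites 3.90% did. A match is a description of the sequence only, and the absence of one says only that these letters were not in the window. The sequences below run 5′ to 3′ on the gene's strand with each match in capitals. They are the window of Nfkbia (chr12:55492648-55492897, minus strand), the last 22 bases before a Tnfaip3 start site (chr10:19015411-19015432, minus strand), a stretch before an Nfkb2 start site that holds overlapping matches (chr19:46304687-46304716, plus strand), and, as the example with no match, the window of Icam1 (chr9:21015690-21015939, plus strand).
Nfkbia: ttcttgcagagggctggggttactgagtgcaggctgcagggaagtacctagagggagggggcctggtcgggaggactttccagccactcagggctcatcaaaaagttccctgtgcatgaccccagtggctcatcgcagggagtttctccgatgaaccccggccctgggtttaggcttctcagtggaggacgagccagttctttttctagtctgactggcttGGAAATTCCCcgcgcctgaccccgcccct
Tnfaip3: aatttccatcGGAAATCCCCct
Nfkb2: gggatcgtcacGGGAATTCCCCccctcggg
Icam1: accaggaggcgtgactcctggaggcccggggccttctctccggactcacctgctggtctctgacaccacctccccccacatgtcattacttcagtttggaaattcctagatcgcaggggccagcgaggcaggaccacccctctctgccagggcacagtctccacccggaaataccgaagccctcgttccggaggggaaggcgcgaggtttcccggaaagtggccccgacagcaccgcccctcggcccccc
The match of Nfkbia began 29 bases before the start site and those of Tnfaip3 began 125 and 12 bases before it.

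Levels below are CPM, the share of a library's reads that fell on a gene, in parts per 1000000, with each library's size scaled by its TMM factor. Of the 28880 genes, 16717 had enough counts to be tested, all 10 members among them. Groups were compared by the two-sided quasi-likelihood test of edgeR, with p adjusted over these 16717 genes by the method of Benjamini and Hochberg, and a gene was called when its adjusted p was under 0.05 and its log2 fold change was beyond 1. Fold changes are ethanol over control, with the standard error (SE) on the log2 scale. Libraries held 60514417 to 74210869 counts, and the 1000 most abundant genes took 80.7% to 82.9% of these with ethanol against 73.7% to 74.5% in controls. TMM factors were 0.768 to 0.836 in the first group and 1.26 to 1.27 in the second. With library size alone the median log2 fold change over all 16717 genes moved from -0.04 to -0.71, so a direction that turns with the scaling is given with both values. Hepatocyte markers checked the tissue, since all 8 on the list, Alb and Hnf4a included, were counted in every library, and their summed level was 128471 to 131625 CPM with ethanol and 70658 to 82536 CPM in controls, with 2 of 8 called higher. That sum overlapped between the groups with library size alone (98573 to 109505 against 88811 to 104387).

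Of the 10 members, 4 were called higher in ethanol-exposed mice (Map3k8, Nfkbiz, Nfkbia and Rela) and 0 were called lower, beside 10.4% of all tested genes called higher and 13.8% called lower (24.2% in either direction). With the adjusted p alone and no threshold on the fold change the same 4 passed, where 21.5% of all genes tested did so in each direction (43.0% in either). The groups did not overlap for these 4 and for Birc3, all higher with ethanol on the TMM scale (Birc3 was at -0.34 with library size alone and lower without overlap in FPKM), beside 28.0% of tested genes higher without overlap and 31.0% lower (59.0% in either direction). The median log2 fold change of the 10 members was 0.63 with TMM and -0.04 with library size alone, against medians of -0.04 and -0.71 over all genes tested. Changes spanned from none detectable for Nfkb2 to folds of 10.2 for Map3k8 and 9.81 for Nfkbiz. With library size alone, 2 members were called higher and 0 lower, where 5.06% of all tested genes were called higher and 32.2% lower. With limma, a linear model test, on log2(FPKM + 1), 2 members were called higher and 0 lower, beside 2.55% and 10.7% of all genes. By the adjusted p alone, 1 member (Nfkb1) was lower with library size alone, beside 48.3% of all genes lower (7.39% higher), and 2 (Nfkb1 and Nfkb2) were lower with limma, beside 51.4% lower (7.49% higher). In the other direction, with the transcript length trend of each library removed (chosen after seeing the data), 6 members were higher by the adjusted p alone, Nfkb1 and Birc3 besides the same 4, and 0 lower, beside 23.9% of all genes higher and 18.0% lower. In bulk liver, fewer cells of a type and less RNA per cell cannot be told apart, and this holds for every level below.

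**Figure D1:**
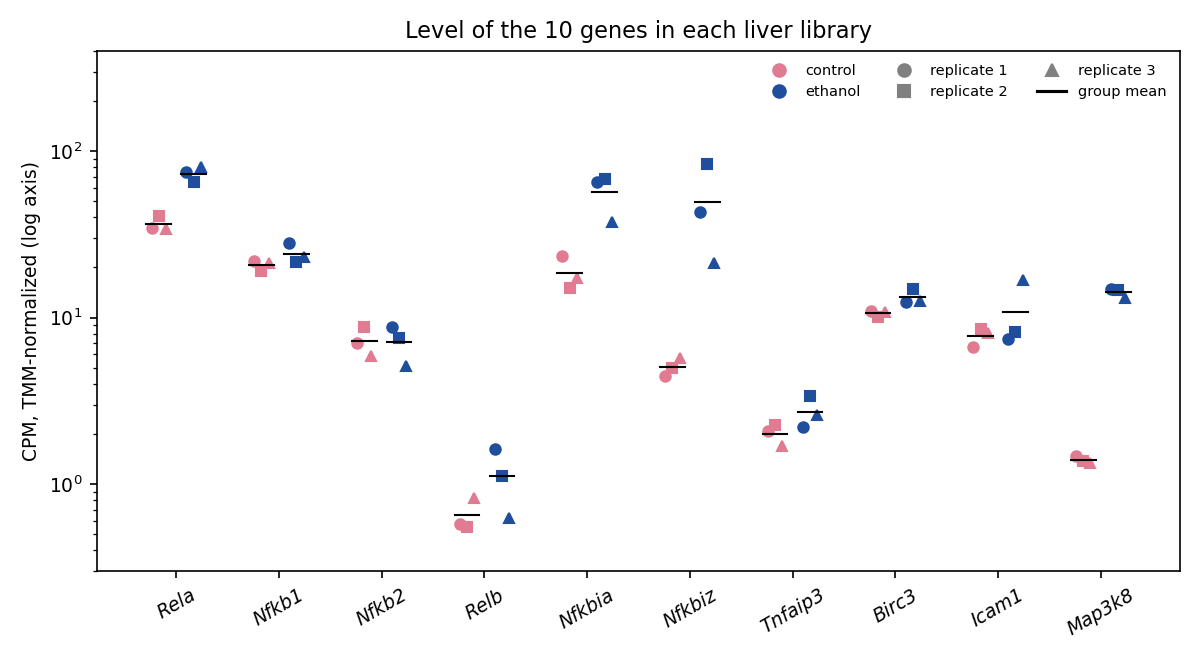
Level of each of the 10 genes in each liver library (TMM-normalized CPM, log axis), control in pink and ethanol in blue, with a symbol for each replicate and a bar for the group mean. Map3k8 sat at 13.0 to 14.9 CPM with ethanol and 1.34 to 1.48 CPM in controls, while Nfkb2 and Icam1 overlapped between the groups.

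The subunit genes differed from each other. Rela encodes p65, the subunit with a transactivation domain in the most common NF-κB dimer. Its gene (ENSMUSG00000024927) lies on chromosome 19, 5687511 to 5698158, plus strand, in the coordinates of the deposited table, which matched the GRCm38 annotation for only 1 of the 10 members (Map3k8) and are therefore not to be read against the promoter positions above. Rela was at 74.9, 64.8 and 80.1 CPM in ethanol replicates 1, 2 and 3 and at 34.6, 40.5 and 34.1 CPM in the controls. On the TMM scale all ethanol-exposed livers lay above all control livers, with the lowest of the first still well above the highest of the second. On the deposited FPKM scale the groups were apart as well but closer, with 17.7, 16.5 and 18.7 for ethanol and 13.3, 15.5 and 13.1 for controls. The log2 fold change of Rela was 1.01 (SE 0.13, edgeR adjusted p = 0.00109). This sits on the threshold of 1. It was 0.99 without ethanol replicate 1, 0.95 without ethanol replicate 3, 0.97 without control replicate 1 and 0.96 without control replicate 3, which ended the call in each case. DESeq2, another count test, gave 0.98 and library size alone 0.34, and the adjusted p was at most 0.0418 in every alternative. Rela kept its call in 6 of 17 alternatives.

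Nfkb1 (ENSMUSG00000028163, chromosome 3, 135290416 to 135397308, minus strand) encodes p105, which is processed to the DNA-binding subunit p50 and otherwise acts as an IκB and holds the Map3k8 kinase. Nfkb1 was at 27.9, 21.5 and 23.0 CPM with ethanol and at 21.8, 19.0 and 21.3 CPM in controls. Ethanol replicate 1 was the highest of the 6, and ethanol replicate 2 lay below control replicate 1. Its log2 fold change of 0.22 (95% interval -0.09 to 0.53, edgeR adjusted p = 0.221) did not pass. With library size alone the value was -0.45, still above the all-gene median of -0.71, and with the length trend removed it was 0.41 (edgeR adjusted p = 0.0478). On the deposited FPKM scale Nfkb1 was lower without overlap, at 1.67, 1.39 and 1.36 for ethanol and 2.14, 1.85 and 2.08 for controls. Gm43430 overlaps Nfkb1 on the same strand, so reads may be shared.

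Nfkb2 (ENSMUSG00000025225, chromosome 19, 46292759 to 46300824, plus strand) encodes p100, precursor of p52 and the inhibitor of the non-canonical pathway. Values of Nfkb2 were 8.76, 7.57 and 5.15 CPM with ethanol and 7.02, 8.73 and 5.89 CPM in controls, so the groups covered the same range. The log2 fold change was -0.01 (95% interval -0.58 to 0.56, edgeR adjusted p = 0.977). It was 0.19 without ethanol replicate 3 and 0.15 without control replicate 2, and -0.67 with library size alone (edgeR adjusted p = 0.0550), close to the all-gene median of -0.71, so no direction can be given. On the deposited FPKM scale the groups did not overlap, with 1.38, 1.28 and 0.799 for ethanol and 1.81, 2.24 and 1.51 for controls. Psd and 4833438C02Rik overlap Nfkb2 on the opposite strand.

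Relb (ENSMUSG00000002983, chromosome 7, 19340142 to 19363363, minus strand) encodes the main partner of p52 and had the fewest counts of the members. Relb had 94, 68 and 34 counts with ethanol and 54, 42 and 68 counts in controls, or 1.63, 1.11 and 0.623 CPM against 0.575, 0.551 and 0.826 CPM. Ethanol replicates 1 and 2 lay above all controls and ethanol replicate 3 lay inside their range. Over all libraries the log2 fold change of Relb was 0.79 (95% interval -0.23 to 1.81, edgeR adjusted p = 0.182). Without ethanol replicate 3 it was 1.08 with an adjusted p of 0.0402 by the same edgeR test, which passes both thresholds.

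Within a library, the FPKM values of the 5 subunit genes (Rel, which encodes c-Rel, included) can be set against each other, since no scaling between libraries enters. FPKM is scaled to a length for each gene, and these lengths were not checked. The size of a share depends on them, so the shares are read for the contrast between the groups. Rela made up 79.0%, 77.7% and 86.4% of the summed subunit FPKM with ethanol and 73.5%, 75.8% and 74.6% in controls. Every ethanol library had the larger Rela share. Nfkb1 took 7.48%, 6.54% and 6.29% with ethanol against 11.8%, 9.04% and 11.9% in controls, and its share was smaller in every ethanol library. The Nfkb2 share was likewise smaller in every ethanol library, at 6.17%, 6.04% and 3.69% against 9.98%, 10.9% and 8.60%. Relb and Rel shares overlapped between the groups. With 3 libraries in each group an exact permutation test cannot go below 0.10, so these shares carry no p.

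**Figure D2:**
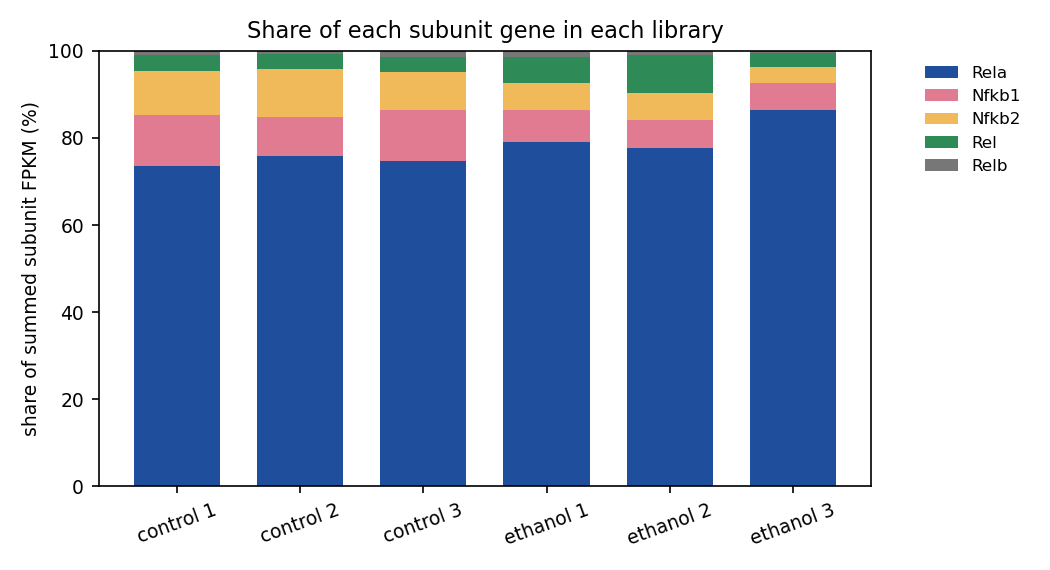
Share of each of the 5 subunit genes in the summed subunit FPKM of each library (%, stacked to 100). Rela held 77.7% to 86.4% in ethanol libraries and 73.5% to 75.8% in control libraries, and the Nfkb1 and Nfkb2 shares were smaller with ethanol.

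Nfkbiz and Nfkbia, both of the IκB family, moved most among the feedback members. Nfkbia (ENSMUSG00000021025, chromosome 12, 55536195 to 55539432, minus strand) encodes IκBα, the inhibitor that NF-κB resupplies within its own response, and its promoter match is printed above. Nfkbia was at 65.2, 68.1 and 37.4 CPM with ethanol and at 23.5, 15.1 and 17.2 CPM in controls. Ethanol replicate 3 was the lowest of its group and still above control replicate 1, the highest control. The log2 fold change was 1.61 (SE 0.27, edgeR adjusted p = 0.00326), a fold of 3.06. It depended on the scaling in size, since library size alone gave 0.95 and limma on log2(FPKM + 1) gave 0.87, both under the threshold of 1. With no filter, limma on log2(FPKM + 1) also gave 0.87, and there the limma adjusted p of 0.0684 did not pass. On the deposited FPKM scale the groups overlapped, with 29.4, 33.0 and 16.6 for ethanol and 17.3, 11.1 and 12.6 for controls.

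Nfkbiz (ENSMUSG00000035356, chromosome 16, 55631738 to 55659262, minus strand) encodes IκBζ, a nuclear member of the IκB family that acts as a coactivator at secondary response genes. Nfkbiz was at 43.2, 83.7 and 21.2 CPM with ethanol and at 4.45, 4.96 and 5.68 CPM in controls. The ethanol-exposed livers were spread widely (49.3 ± 31.7 CPM, SD, n = 3), and the lowest of them, replicate 3, was still above every control. Its log2 fold change of 3.29 (SE 0.48, edgeR adjusted p = 0.00191) corresponds to a fold of 9.81. The call held in all 17 alternatives, between 1.77 and 3.67.

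Tnfaip3 (ENSMUSG00000019850, chromosome 10, 18876658 to 18891158, minus strand) encodes A20, the ubiquitin-editing enzyme that shuts down signalling from the TNF receptor. Tnfaip3 was at 2.21, 3.38 and 2.58 CPM with ethanol and at 2.09, 2.26 and 1.69 CPM in controls. Ethanol replicate 1 fell inside the control range and the others lay above it. The log2 fold change was 0.44 (95% interval -0.17 to 1.04, edgeR adjusted p = 0.208) and -0.22 with library size alone. The ratio of Tnfaip3 to Nfkbia FPKM was 0.00749, 0.0110 and 0.0153 with ethanol against 0.0194, 0.0329 and 0.0215 in controls. That ratio was lower in every ethanol library.

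Birc3 (ENSMUSG00000032000, chromosome 9, 7848700 to 7873171, minus strand) encodes cIAP2, a ubiquitin ligase at the TNF receptor that protects from cell death. Birc3 was at 12.4, 14.9 and 12.6 CPM with ethanol and at 10.9, 10.1 and 10.8 CPM in controls, so the groups did not overlap on the TMM scale. They did not overlap on the deposited FPKM scale either, but in the other direction, with 1.78, 2.32 and 1.80 for ethanol and 2.57, 2.37 and 2.53 for controls, so no direction can be given. The difference was small, with a log2 fold change of 0.33 (95% interval 0.02 to 0.63, edgeR adjusted p = 0.0800), and it was -0.34 with library size alone. The adjusted p was 0.0336 at a log2 fold change of 0.38 without ethanol replicate 3, and 0.0177 at 0.51 with the length trend removed. Its neighbour and paralog Birc2, which encodes cIAP1, was at a log2 fold change of 0.39 (edgeR adjusted p = 0.0585) and at -0.28 with library size alone, and the Birc3 to Birc2 ratio of FPKM overlapped between the groups. Reads that fit both paralogs could have been split between them.

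Icam1 (ENSMUSG00000037405, chromosome 9, 20927281 to 20940113, plus strand) encodes the adhesion molecule that leukocyte integrins bind. Icam1 was at 7.46, 8.21 and 16.7 CPM with ethanol and at 6.69, 8.52 and 8.12 CPM in controls. Ethanol replicate 3 alone stood above the controls. The log2 fold change of 0.47 (95% interval -0.27 to 1.22, edgeR adjusted p = 0.263) became 0.02 without that library and -0.21 with library size alone. Neutrophil markers stood highest in the same library, with a summed level of 14.9 CPM against 3.06 and 3.91 CPM in the other ethanol livers and 1.21 to 1.72 CPM in controls, and their part in the Icam1 value was not tested. Gm47079 overlaps Icam1 on the opposite strand.

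Map3k8 (ENSMUSG00000024235, chromosome 18, 4331327 to 4353015, minus strand) encodes Tpl2, the kinase that p105 holds inactive and that passes on inflammatory signals once freed. Map3k8 had 859, 901 and 712 counts with ethanol and 139, 105 and 110 counts in controls. In CPM this was 14.9, 14.7 and 13.0 against 1.48, 1.38 and 1.34. Both groups were tight, at 14.2 ± 1.03 CPM and 1.40 ± 0.0747 CPM (SD, n = 3 each), and far apart. The log2 fold change was 3.35 (SE 0.15, edgeR adjusted p = 5.61e-05), a fold of 10.2, and the call held in all 17 alternatives, between 1.29 and 3.52. Against its partner Nfkb1, free of scaling between libraries, the ratio of Map3k8 to Nfkb1 FPKM was 1.43, 1.84 and 1.52 with ethanol and 0.180, 0.191 and 0.166 in controls. Tnip2 encodes ABIN-2, the third protein of that complex, and it rose as well, from 3.59, 2.69 and 2.83 CPM in controls to 14.7, 14.6 and 34.3 CPM with ethanol (log2 fold change 2.80, SE 0.37, edgeR adjusted p = 0.00142).

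**Figure D3:**
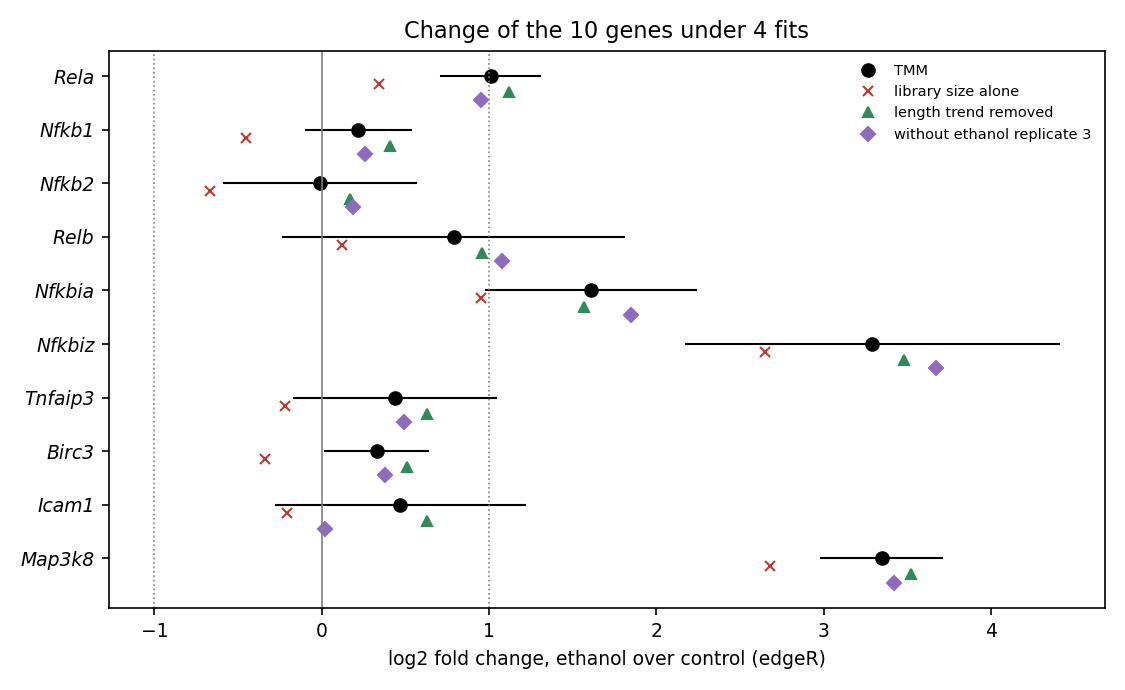
Log2 fold change of each gene, ethanol over control, with TMM scaling (black, bars are 95% intervals), with library size alone, after removal of the transcript length trend of each library, and without ethanol replicate 3. Map3k8 and Nfkbiz stayed beyond 1 in all 4 fits, while Nfkb1, Tnfaip3, Birc3 and Icam1 were above 0 with TMM and below 0 with library size alone.

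On the FPKM scale the order of the members was different in the groups. The rank of a gene within a group depends on the length used for it, which was not checked. In control livers Rela (14.0 ± 1.36, SD, n = 3) and Nfkbia (13.6 ± 3.23) were highest and did not differ beyond their spread. Birc3, Icam1, Nfkb1 and Nfkb2 followed with means of 1.85 to 2.49, with overlapping ranges among Icam1, Nfkb1 and Nfkb2. Below them came Nfkbiz (1.18 ± 0.142), and Map3k8 (0.361 ± 0.0207) and Tnfaip3 (0.323 ± 0.0472) overlapped above Relb (0.194 ± 0.0462). In ethanol livers Nfkbia (26.3 ± 8.59) and Rela (17.6 ± 1.12) were again highest with overlapping ranges. Nfkbiz came next (7.42 ± 5.10), and Map3k8 (2.34 ± 0.242) overlapped Birc3 (1.97 ± 0.307) and Icam1 (1.82 ± 0.814). By group mean, Tnfaip3 and Relb were lowest in both groups.

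The rest of the pathway was described from lists of 96 genes by role, of which 85 were tested. Of these, 23 were called higher and 8 lower, beside 10.4% and 13.8% of all genes tested. The lower calls numbered 5 without ethanol replicate 1, ethanol replicate 2, control replicate 1 or control replicate 3. With library size alone 14 genes were called higher and 15 lower, beside 5.06% and 32.2% of all genes tested. The median log2 fold change of the 85 genes was 0.36 with TMM and -0.29 with library size alone. Among 5 ligand genes tested, 0 were called in either direction. Tnf, the classical activating cytokine, was below the filter with 0, 4 and 12 counts with ethanol and 4, 5 and 8 in controls, and Il1b had a log2 fold change of -0.71 (edgeR adjusted p = 0.338). Of 13 receptor genes tested, 6 were called higher and 1 lower. The lower count was 0 or 2 in 9 of 17 alternatives. The gene is Tlr3, the receptor for double-stranded RNA, named after its value was seen, at 2.28, 1.16 and 2.90 CPM with ethanol and 5.15, 5.58 and 4.97 CPM in controls. Its log2 fold change was -1.31 (edgeR adjusted p = 0.0172), with an adjusted p of 0.0517 to 0.0609 when any 1 control was left out, and limma on log2(FPKM + 1) gave -0.76. Il1r1, the interleukin-1 receptor, rose from 26.9, 34.5 and 36.0 CPM in controls to 1049, 779.5 and 1149 CPM with ethanol. That is a log2 fold change of 4.93 (SE 0.22, edgeR adjusted p = 5.53e-05). Cd14, the lipopolysaccharide co-receptor, rose by 4.64 on the log2 scale, Tnfrsf12a (the TWEAK receptor) by 3.56 and Tnfrsf1b (TNF receptor 2) by 2.53.

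Between receptor and NF-κB the genes went both ways. Of 18 adaptor and upstream kinase genes, 4 were called higher and 1 lower. Traf3, the brake on the non-canonical pathway, fell by 1.65 on the log2 scale (SE 0.14, edgeR adjusted p = 0.000263), from 14.1, 15.1 and 12.5 CPM in controls to 4.38, 4.61 and 4.29 CPM with ethanol. Ticam1 (TRIF), Traf6 and Tab3, which link receptors to the kinases, rose with log2 fold changes of 1.09, 1.09 and 1.18. They were, with library size alone, at 0.43, 0.41 and 0.52, which ended all 3 calls, as limma on log2(FPKM + 1) did at 0.36, 0.27 and 0.27. Traf6 was also under the threshold, at 0.95, without ethanol replicate 3. Of the IKK genes, Chuk (IKKα) was at 0.98 (edgeR adjusted p = 0.000800), Ikbkb (IKKβ) at -0.36 and Ikbkg (NEMO) at -0.46, and 0 of these 3 were called. That count depended on the setting, since with library size alone Ikbkb was called lower at -1.03 and Ikbkg at -1.13 while Chuk was at 0.32. Chuk was called higher at 1.06 without ethanol replicate 3, at 1.04 without control replicate 1 and at 1.17 with the length trend removed. The related kinases parted, with Ikbke called lower at -1.15 (-0.96 and not called with the length trend removed) and Tbk1 called higher at 1.02, a call that ended without ethanol replicate 3, control replicate 2 or control replicate 3 (0.96, 0.97 and 0.97). Tbk1 was at 0.34 with library size alone and at 0.29 with limma on log2(FPKM + 1), and kept its call in 7 of 17 alternatives.

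Of the other subunit and IκB genes, 3 of 5 tested were called higher and 1 lower. Rel was at 13.9, 17.7 and 6.96 CPM with ethanol and 4.28, 4.42 and 3.92 CPM in controls, with the same library lowest as for Nfkbia and Nfkbiz (log2 fold change 1.61, SE 0.32, edgeR adjusted p = 0.00704). The call of Rel ended with library size alone (0.96) and with limma on log2(FPKM + 1) (0.43, limma adjusted p = 0.0879). Nfkbib, which encodes IκBβ, rose by 1.77 on the log2 scale (SE 0.17, edgeR adjusted p = 0.000385) with all libraries of the groups apart. Bcl3, a nuclear IκB, rose by 1.69 (edgeR adjusted p = 0.0159), with ethanol replicate 3 highest at 102 CPM against 45.8 and 29.3. Without that library Bcl3 was at 1.06 (edgeR adjusted p = 0.00267). Its adjusted p was 0.0549 to 0.0679 when any 1 control was left out and 0.0612 with library size alone. Nfkbie, the gene of IκBε, fell by 1.33 (edgeR adjusted p = 0.0458), and its adjusted p passed 0.05 without ethanol replicate 1 or 2 or without control replicate 1 or 3 (0.0869, 0.115, 0.163 and 0.118).

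Among 12 other feedback genes, 2 were called higher, Tnip2 and Zc3h12a (2.01, an RNase that destroys inflammatory transcripts), and 0 lower. Among 20 other target genes, 7 were called higher and 3 lower. The 4 with the smallest adjusted p were Bcl2l1 (2.98), Vcam1 (2.18), Gadd45b (7.59) and Ier3 (3.12). Bcl2l1 encodes the survival protein Bcl-xL and Gadd45b a stress-induced protein. Cflar, the gene of c-FLIP, which blocks caspase activation, was named after its value was seen and was at -0.96 (edgeR adjusted p = 0.00378), just short of a call, and at -1.64 with library size alone and -1.15 without ethanol replicate 3, both called lower. Vcam1, which encodes another leukocyte adhesion molecule, rose without overlap from 3.31, 3.15 and 3.84 CPM to 17.3, 16.2 and 13.1 CPM, and the Icam1 to Vcam1 ratio of FPKM was lower in every ethanol library. Of the 3 integrin genes for ICAM1 receptors, Itgal was called lower at -1.52. On log2(FPKM + 1), limma gave values inside the threshold of 1 for Vcam1 (0.66), Zc3h12a (0.81), Nfkbib (0.98), Nfkbie (-0.54), Bcl3 (0.78) and Itgal (-0.77). Chosen after their values were seen, the others called were Cxcl1 (5.57), Lcn2 (7.32) and Saa3 (2.32), which were higher, and Tnfaip2 (-1.36), the transcription factor gene Irf1 (-1.09) and the chemokine gene Ccl2, which were lower. Ccl2 had 0, 0 and 4 counts with ethanol and 44, 12 and 32 in controls, so its fitted value of -3.75 is no measured fold, and it was -7.66 without ethanol replicate 3 (edgeR adjusted p = 0.00695). Without that library Cxcl1 was at 4.57 and Saa3 at 1.65, both still called. Tnfaip2 kept its call in all 17 alternatives, Irf1 was at -0.96 and -0.98 without ethanol replicate 1 or 2, and the adjusted p of Saa3 was 0.0501 and 0.0503 without control replicate 2 or 3. On log2(FPKM + 1), limma ended the calls of Saa3 (0.74), Ccl2 (-0.40) and Lcn2 (3.88, limma adjusted p = 0.0593). Lcn2 was far higher in ethanol replicate 3, with 144597 counts there against 2857 and 2224 in the other ethanol livers, and was at 2.92 without that library (edgeR adjusted p = 0.000670). The adjusted p of Lcn2 was 0.0691 to 0.0787 when any 1 control was left out, and that of Ccl2 was 0.0716 to 0.129 without any 1 library other than ethanol replicate 3. Il1r1 overlaps another annotated gene on the same strand, and Il1b, Tlr3, Ikbkg, Ikbke and Bcl3 on the opposite strand, so their counts are uncertain.

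**Figure D4:**
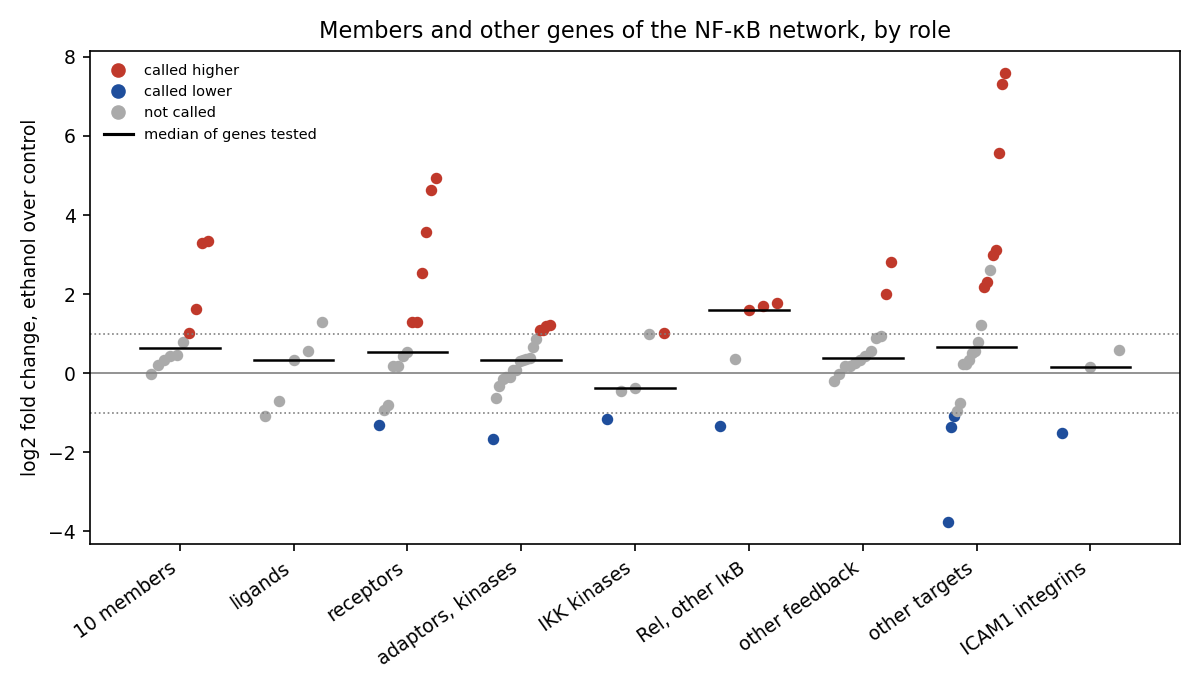
Log2 fold change, ethanol over control with TMM scaling, for the 10 members and for the lists of other NF-κB network genes described here, one point per gene tested, coloured by call, with the list median as a bar. Points called higher number 4 of 10 members, 6 of 13 receptors and 7 of 20 other targets, and 0 of 5 ligands. With library size alone, 2 members were called higher, and 14 network genes were called higher instead of 23, beside 5.06% of all genes tested.

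Ethanol replicate 3 held the extreme value of its group for several named genes. It had the lowest Nfkbia, Nfkbiz, Rel, Relb, Nfkb2 and Gadd45b of its group and the highest Icam1, Tnip2, Bcl3, Cxcl1 and Lcn2. Nfkb1, Tnfaip3 and Birc3 had neither their lowest nor their highest ethanol value there. With 3 libraries in a group, any library is the lowest or highest for many genes. Without ethanol replicate 3, Map3k8, Nfkbiz and Nfkbia kept their calls, at log2 fold changes of 3.42, 3.67 and 1.85, Rela fell to 0.95 and Relb was called.

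Marker lists of other liver cells moved in part with the groups. Kupffer cell markers, 8 of 8 tested, summed to 99.1 to 134 CPM with ethanol and 121 to 131 CPM in controls, with 0 called. Endothelial markers summed to 114 to 193 and 134 to 148 CPM, with 2 called higher and 2 lower. Of 8 neutrophil markers 5 were tested and 4 called higher, while Elane was at 0 in 3 ethanol and 0 control libraries, Mpo in 3 and 2, and Ly6g in 2 and 3. T and NK cell markers summed to 0.556 to 0.935 CPM against 2.12 to 2.999 CPM, with 1 of 5 tested called lower, and Cd8a was at 0 in every ethanol library. The summed monocyte, B cell and cholangiocyte levels overlapped. Of 4 monocyte markers tested, 1 was called higher and 1 lower, and the monocyte marker Ccr2 was at 0 in every ethanol library. Of 4 B cell markers tested, 0 were called higher and 1 lower, and of 5 cholangiocyte markers 1 higher and 0 lower. Stellate cell markers summed to 133 to 164 CPM with ethanol and 114 to 127 CPM in controls, with 0 of 6 called. These sums depended on the scaling. The stellate sum was lower with ethanol once library size alone was used (102 to 137 against 144 to 159), as were the Kupffer cell sum (82.8 to 104 against 153 to 165), the endothelial sum (88.7 to 148 against 169 to 188) and the monocyte sum (20.03 to 23.7 against 32.5 to 43.8). The neutrophil sum was still higher (2.38 to 11.5 against 1.54 to 2.16) and the T and NK cell sum still lower (0.465 to 0.717 against 2.68 to 3.77). Whether any of these cells account for part of the members' values was not tested.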

How the data were processed

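Liver RNA of 3 acute ethanol-exposed and 3 control mice was sequenced as paired 150 bp reads. The authors deposited, for each of 28880 genes, the whole-number read count and the FPKM value (scaled to transcript length and library size) of each library in 1 table. Reads had been trimmed of adaptors and low-quality or ambiguous sequence. The aligner, the counting software and the use of strand are not given in the sources used here, so overlapping genes are uncertain. The length used for each gene in FPKM was not checked, so FPKM levels of different genes, and their ratios, are uncertain in size. The submitters' processing notes name GRCm38 (mm10), but only 1.99% of 27049 shared gene identifiers have the same start and end in the table and in the GRCm38 annotation (GENCODE M21), so gene positions are given as the table has them. In addition, 1 column of counts fitted none of the libraries and was left out.

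Counts were analysed in R 4.3.3 with edgeR 4.0.16 (filterByExpr, TMM, quasi-likelihood test without covariates, Benjamini-Hochberg over all genes tested), limma 3.58.1 and DESeq2 1.42.0. The common biological coefficient of variation was 0.299. Libraries were deep (60514417 to 74210869 counts), but the 3 mice per group limit precision. The p-values weigh the difference between the groups against the spread between the libraries of a group. For genes with few counts, such as Ccl2 and Tnf, counting error limits precision as well. Counts of 3 or fewer were read as not detected, which covers counting error only. Libraries of one group differed by more than counting noise (chi-square divided by its degrees of freedom, 49.6 to 496), so none was a copy of another library. This does not show that they came from different animals. The tests were checked on simulated data in which as many genes were raised as lowered. That check does not cover a shift in scaling between the groups like the one seen here.

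Groups came from the labels. The members, pathway lists, marker lists and thresholds were chosen with earlier results of these data known. Named genes are all 10 members, up to 4 called genes with the smallest adjusted p in each pathway list, and Rel, Chuk, Ikbkb, Ikbkg, Nfkbib, Nfkbie, Bcl3, Tnf and Il1b. Birc2, Cflar and the remaining called targets were added after their values were seen. Alternatives were DESeq2, limma on log2(FPKM + 1) and log2(FPKM + 0.1), other scalings and filters, the replicate number as a block and each library left out. Removal of the trend with transcript length and the ratios within a library were chosen after seeing the data, as were marker sums with library size alone. The kinases downstream of Map3k8 were among the network lists, and their values are not reported here.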

Additional observations from a re-analysis of the deposited data

How the results depend on the processing

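Across 17 alternatives, the log2 fold changes of the 10 members kept their direction and side of the threshold 134 times, lost the call 15 times, gained it once (Relb) and changed sign 19 times. With library size alone, Nfkb1 was at -0.45, Tnfaip3 at -0.22, Birc3 at -0.34 and Icam1 at -0.21. With limma on log2(FPKM + 1), with or without a filter, they were at -0.29, -0.05, -0.24 and -0.17, and on log2(FPKM + 0.1) at -0.43, -0.17, -0.33 and -0.27. Both limma and library size alone use no TMM factor. Nfkb2, at -0.01, was 0.17 with the length trend removed, 0.19 without ethanol replicate 3 and 0.15 without control replicate 2 (-0.18 to 0.19 over the libraries left out), and the cause was not tested. Each of the 3 limma fits and library size alone called 2 members higher and 0 lower. Of all genes, limma on log2(FPKM + 1) called 2.55% higher and 10.7% lower, and on log2(FPKM + 0.1) 4.70% and 31.0%. Limma with no filter called 1.43% and 6.40%, and library size alone 5.06% and 32.2%. By adjusted p alone, limma on log2(FPKM + 1) had 2 members lower, against 0 with TMM. Limma on log2(FPKM + 0.1), limma with no filter and library size alone had 1 each. Over all genes, 51.4%, 51.2%, 31.2% and 48.3% were lower by adjusted p alone in these fits, in that order, against 21.5% with TMM. Of the network genes, 9, 13, 9 and 14 were called higher in these fits (in the order log2(FPKM + 1), log2(FPKM + 0.1), no filter, library size alone) instead of 23. With limma on log2(FPKM + 0.1) and with library size alone, 15 were called lower instead of 8, beside 31.0% and 32.2% of all genes instead of 13.8%. Leaving out each library gave 3 to 4 members higher by the full call, 4 to 6 by adjusted p alone, 18 to 24 network genes higher and 5 to 11 lower. Over all genes, the same fits called 8.57% to 10.9% higher and 9.88% to 16.5% lower, with 14.5% to 24.7% higher by adjusted p alone. Of the other genes named with a fold change, Birc2 alone changed sign, to -0.28 with library size alone, -0.22 with limma on log2(FPKM + 1) with or without a filter and -0.27 on log2(FPKM + 0.1). Libraries of the same replicate number shared no pattern of deviations from their group means (correlations of -0.042, -0.027 and -0.008). These values cannot tell whether the mice were paired in handling. With the replicate number as a block 4 members were higher and 0 lower, with 22 and 7 network genes, beside 9.08% and 12.0% of all genes. Relb, with 34 to 94 counts, was removed by a filter of 1 CPM in 3 libraries.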

Other observations

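Within each library, ratios of FPKM that need no scaling between libraries set other members beside each other, and they were chosen after seeing the data. Their size depends on the gene lengths behind FPKM, so they are read for the contrast between the groups. The ratio of Rela to Nfkb1 was 10.6, 11.9 and 13.7 with ethanol and 6.23, 8.39 and 6.29 in controls, with no overlap. The ratio of Nfkbia to Rela, inhibitor to subunit, was 1.66, 2.005 and 0.890 with ethanol and 1.30, 0.712 and 0.963 in controls, so the groups overlapped through ethanol replicate 3. Nfkbiz to Nfkbia was 0.212, 0.394 and 0.182 with ethanol and 0.0606, 0.105 and 0.106 in controls, higher in every ethanol library. Tnip2 to Nfkb1 was 2.37, 3.06 and 6.71 with ethanol and 0.735, 0.636 and 0.594 in controls, and Map3k8 to Tnip2 overlapped between the groups.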
